A study of Mus musculus with 5 samples.

Results

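CBX2 peaks of mouse embryonic fibroblasts (MEFs) that expressed human EZHIP were compared with those of Control MEFs, site by site and gene by gene. The 255 peaks of the EZHIP list and the 289 peaks of the Control list made up 544 of the 871 peaks in the lists of the series. A peak counted as matched when it overlapped a peak of the other list by at least 1 bp. Overlapping peaks of both lists were joined into sites, and a site was called wider or narrower in EZHIP when the summed EZHIP width differed from the summed Control width by 1.5-fold or more.

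Control cells were parental MEFs with loxP sites flanking exons of Eed, which encodes a core subunit of Polycomb Repressive Complex 2 (PRC2). Eed was floxed but not deleted in either group. EZHIP cells were transduced with a lentivirus that carried EZHIP under a constitutive promoter and a puromycin resistance gene, and were selected with puromycin. No vector is named for the Control cells, so the effects of EZHIP and of transduction and selection cannot be told apart. Crosslinked chromatin was digested with micrococcal nuclease and precipitated with an antibody against CBX2, and each group had 1 library and 1 list of broad peaks. The comparison addressed whether the places bound by CBX2 differed when PRC2 was inhibited by EZHIP.

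PRC2 methylates lysine 27 of histone H3, and the trimethylated form (H3K27me3) marks silent developmental genes. CBX2 is one of the chromodomain subunits of canonical PRC1, through which the complex can bind H3K27me3 and compact chromatin. EZHIP is a protein of posterior fossa ependymomas that inhibits PRC2 through a short peptide resembling the H3 K27M sequence. Typical Polycomb targets in fibroblasts are Hox clusters and genes of transcription factors that specify other lineages.

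The peak lists give positions only. They carry no height, score or p-value, the read depth behind them is unknown, and with 1 library per group no difference between the lists had a replicate check. Absence from a list means that no peak was called there, not that CBX2 was absent. Intervals beside percentages and medians are exact 95% intervals. They cover counting error over the peaks, sites, edges or gene starts counted, and treat these as independent.

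The sequences that follow show what kind of DNA lay before the starts discussed later. Each is the stretch of 200 bases just upstream of a RefSeq gene start, read on the strand of the gene and placed on mm9 by an exact match, with CpG dinucleotides in capitals. RefSeq promoters came from a table of the GRCm38.p6 build. Evx2 lies in the widest site, among the named genes kept in both lists, that had an entry in that table, BC107364 and En1 lay in peaks of the Control list alone, and Lmx1b lay in a peak of the EZHIP list alone. Junb, Ddit3 and Ier3 are immediate early or stress genes with Control peaks alone. The Actb and Ier2 promoters are not shown.
Evx2: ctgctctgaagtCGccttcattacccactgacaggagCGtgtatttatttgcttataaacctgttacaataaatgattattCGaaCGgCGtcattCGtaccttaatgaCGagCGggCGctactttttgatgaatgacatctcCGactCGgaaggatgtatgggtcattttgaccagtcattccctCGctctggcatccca
BC107364: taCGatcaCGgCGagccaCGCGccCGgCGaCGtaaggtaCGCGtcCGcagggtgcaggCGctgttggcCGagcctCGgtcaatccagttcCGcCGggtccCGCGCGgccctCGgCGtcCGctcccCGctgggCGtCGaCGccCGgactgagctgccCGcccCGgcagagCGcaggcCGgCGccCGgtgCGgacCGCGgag
En1: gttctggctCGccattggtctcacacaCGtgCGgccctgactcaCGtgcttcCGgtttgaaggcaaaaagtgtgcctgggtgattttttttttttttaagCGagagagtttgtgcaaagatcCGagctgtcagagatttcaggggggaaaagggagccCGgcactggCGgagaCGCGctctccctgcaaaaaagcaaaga
Lmx1b: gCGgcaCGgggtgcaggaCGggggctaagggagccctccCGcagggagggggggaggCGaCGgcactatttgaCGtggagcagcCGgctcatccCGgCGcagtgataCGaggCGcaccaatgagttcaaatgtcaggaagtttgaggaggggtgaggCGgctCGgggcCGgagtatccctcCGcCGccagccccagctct
Junb: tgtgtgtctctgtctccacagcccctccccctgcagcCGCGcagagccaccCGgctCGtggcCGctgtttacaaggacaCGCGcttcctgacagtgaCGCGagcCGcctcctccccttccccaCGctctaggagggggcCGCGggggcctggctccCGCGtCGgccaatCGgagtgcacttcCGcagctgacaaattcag
Ddit3: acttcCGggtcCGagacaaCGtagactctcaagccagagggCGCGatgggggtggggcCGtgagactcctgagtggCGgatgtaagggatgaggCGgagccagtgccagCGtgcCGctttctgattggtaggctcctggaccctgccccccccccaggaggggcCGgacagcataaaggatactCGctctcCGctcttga
Ier3: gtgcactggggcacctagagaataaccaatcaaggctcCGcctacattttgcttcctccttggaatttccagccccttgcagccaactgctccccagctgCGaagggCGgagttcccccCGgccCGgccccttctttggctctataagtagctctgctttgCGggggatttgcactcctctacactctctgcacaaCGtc

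CpG counts in these windows describe single genes and cannot compare the groups. Evx2 was the only kept gene shown and Lmx1b the only one in an EZHIP peak alone. The Evx2 window (chr2:74497615-74497814, minus strand) held 12 CpG, a number reached by 29.4% of the 32851 promoters in the table. En1 (chr1:122498864-122499063, plus strand) held 11 CpG, reached by 31.7%. Lmx1b (chr2:33496619-33496818, minus strand) held 17, reached by 18.2%. Junb (chr8:87502648-87502847, minus strand) held 18, reached by 16.2%, Ddit3 (chr10:126727649-126727848, plus strand) held 13, reached by 27.1%, and Ier3 (chr17:35958458-35958657, plus strand) held 7, reached by 42.5%. BC107364 (chr3:96256230-96256429, minus strand) was the extreme with 36 CpG, reached by 0.654% of promoters, and its peak was multi-copy, with 53.8% of its sampled 32-mers present more than once in the genome. The windows of Evx2, BC107364, En1 and Lmx1b lay entirely inside their peaks. Of the 200 bases, only 153 did so at Junb, 48 at Ddit3 and 57 at Ier3, because those peaks began close to the gene start.

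Most CBX2 sites were called in both lists. Of the Control peaks 192 of 289 (66.4%, 60.7 to 71.9) had an EZHIP counterpart, and of the EZHIP peaks 193 of 255 (75.7%, 69.9 to 80.8) had a Control counterpart. Joining the lists gave 348 sites, of which 189 were held by both lists, 97 by Control alone and 62 by EZHIP alone. The sites in both lists were the wider ones, with a median summed width of 10400 bp in Control (9000 to 12600) and 9400 bp in EZHIP (8400 to 10400). Peaks in a single list had a median width of 3800 bp in either list (3000 to 4600 for Control, 3400 to 4400 for EZHIP). The narrowest EZHIP peak was 2200 bp wide, whereas 17 Control peaks were narrower than that, and none of those 17 had an EZHIP counterpart.

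At matched sites the widths were mostly similar, with a tail of sites that were narrower in EZHIP. Of the 189 sites, 142 (75.1%, 68.3 to 81.1) differed by less than 1.5-fold, 33 (17.5%, 12.3 to 23.6) were narrower and 14 (7.41%, 4.11 to 12.1) were wider in EZHIP. EZHIP width over Control width had a median log2 ratio of -0.09 (-0.16 to -0.06), and single sites ranged from -2.90 to 1.58. The narrower sites went from a median of 10600 bp in Control to 5200 bp in EZHIP. The wider sites started from small Control peaks, with a median of 3900 bp, and reached 8900 bp in EZHIP. Both classes were picked on the width ratio, and no EZHIP peak was narrower than 2200 bp. Small Control peaks could therefore be called wider more readily than narrower, so their small width partly follows from the choice of class.

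**Figure D1:**
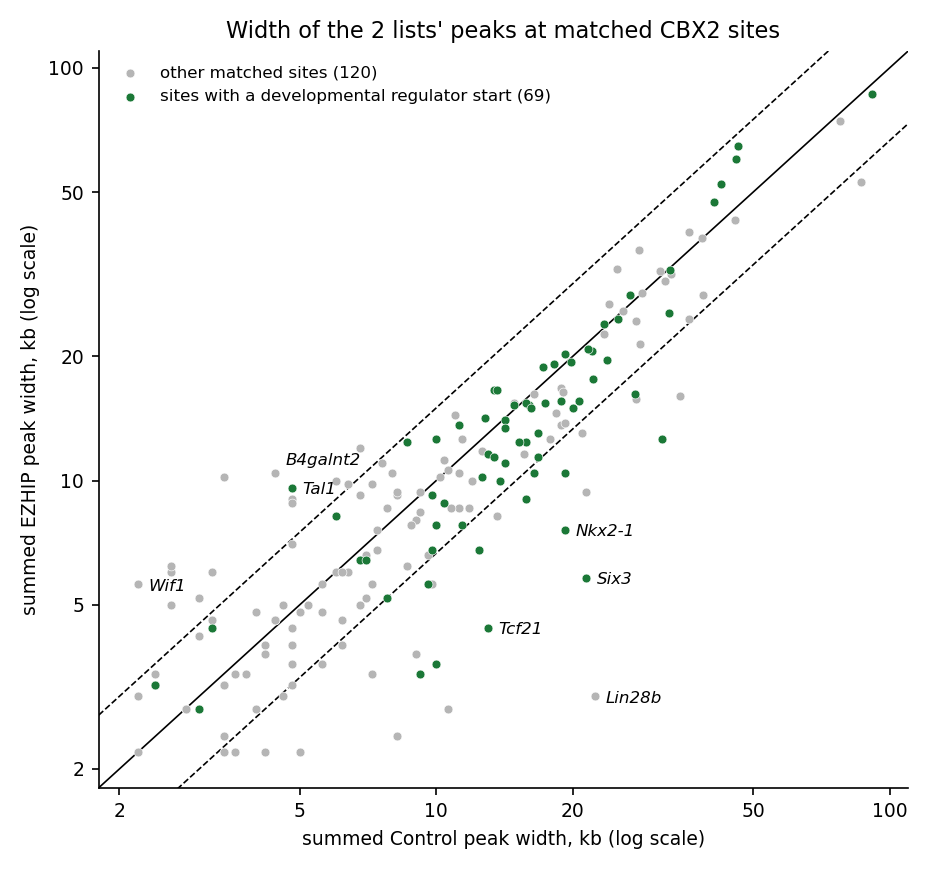
Summed EZHIP peak width against summed Control peak width at the 189 matched sites, in kb on log scales, with 1 point per site. The solid line marks equal width and the dashed lines 1.5-fold. Green points hold the start of a developmental regulator. Of these 69 sites, 13 lie below the lower dashed line and 1 (Tal1) lies above the upper one.

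EZHIP edges lay further in more often than further out, and most of the narrower one-to-one sites lost width at both edges. At the 183 sites with 1 Control and 1 EZHIP peak, the EZHIP peak lay within the Control peak at 84 sites (45.9%) and the Control peak within the EZHIP peak at 47 (25.7%). The peaks were shifted against each other at 47 sites and had identical ends at 5. Of the 366 edges, 112 (30.6%) lay within 200 bp, the width of 1 bin, and 220 (60.1%) within 1000 bp of the edge in the other list. EZHIP edges lay further in at 187 (51.1%, 45.8 to 56.3) and further out at 126 (34.4%, 29.6 to 39.5). Edges that moved by 5 kb or more were further in at 24 and further out at 8. Of the 31 narrower one-to-one sites 22 lost width at both edges, and of the 13 wider ones 9 gained it at both.

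**Figure D2:**
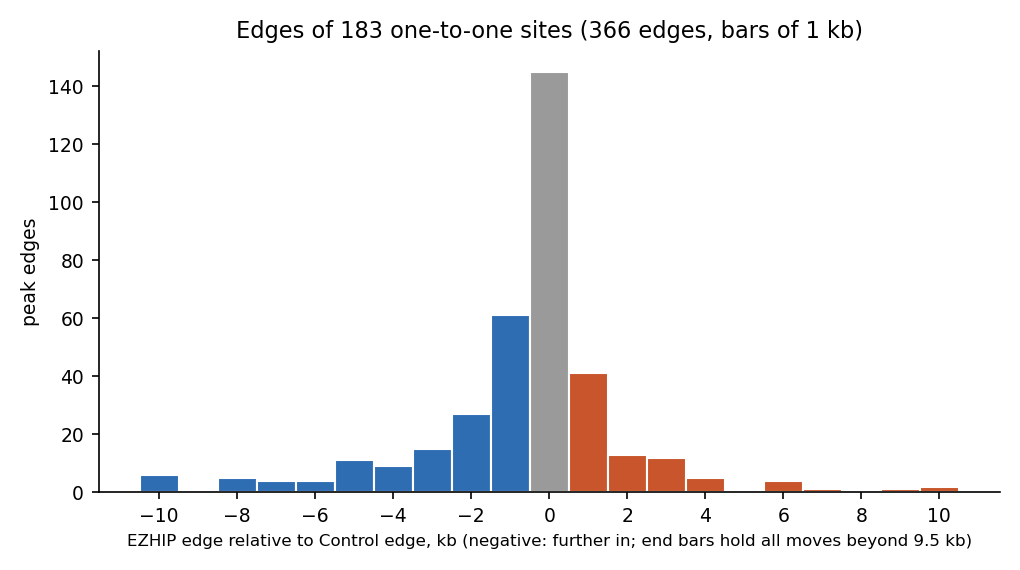
Position of each EZHIP peak edge relative to the Control edge of the same site, in kb, for the 366 edges of 183 one-to-one sites. Negative values (blue) lie inside the Control peak and positive values (orange) outside it. The central grey bar holds the 145 edges that differed by 400 bp or less, and the bars on the left outweigh those on the right.

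Sites in both lists held genes more often than sites of a single list. A protein-coding gene start lay inside 125 of the 189 sites in both lists (66.1%, 58.9 to 72.8), inside 20 of the 97 Control-only sites (20.6%, 13.1 to 30.0) and inside 16 of the 62 EZHIP-only sites (25.8%, 15.5 to 38.5). Starts of developmental regulators, taken from 15 lists of transcription factor and ligand genes, lay in 69 of 189 (36.5%, 29.6 to 43.8), 7 of 97 (7.22%, 2.95 to 14.3) and 1 of 62 (1.61%, 0.0408 to 8.66). Sites in both lists were also wider. In each class the share with a start was higher among wider sites, but for single-list sites the intervals overlapped. Among sites whose widest peak reached 5000 bp, a protein-coding start lay in 113 of 159 in both lists (71.1%, 63.4 to 78.0), 9 of 33 in Control only (27.3%, 13.3 to 45.5) and 7 of 19 in EZHIP only (36.8%, 16.3 to 61.6). Among narrower sites the counts were 12 of 30 (40%, 22.7 to 59.4), 11 of 64 (17.2%, 8.90 to 28.7) and 9 of 43 (20.9%, 10.0 to 36.0), where the intervals overlapped. With a CpG island window they were 116 of 155 (74.8%), 17 of 39 (43.6%) and 16 of 29 (55.2%). When the lists were first cut to peaks of at least 5000 bp and then matched, a start lay in 36.2% of Control-only and 51.5% of EZHIP-only peaks. A CpG island window was present in 82.0% of the sites in both lists, 40.2% of the Control-only sites and 46.8% of the EZHIP-only sites. Multi-copy sequence, where placement of reads is ambiguous, made up 31 of 97 Control-only sites (31.96%, 22.9 to 42.2), against 6 of 62 EZHIP-only sites (9.68%, 3.63 to 19.9) and 28 of 189 sites in both lists (14.8%, 10.1 to 20.7). On the X chromosome lay 7 of the Control-only sites and 4 of the sites in both lists, while 0 of 62 were EZHIP only, which allows a share of up to 5.78%.

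EZHIP-only sites overlapped a protein-coding gene at 44 of 62 (71.0%, 58.1 to 81.8), against 43 of 97 Control-only sites (44.3%, 34.2 to 54.8). Sites without a gene start inside lay at a median of 7.38 kb (1.42 to 24.8) from the nearest one when EZHIP only (46 sites). When Control only (77 sites) the median was 25.8 kb (14.8 to 41.2), and the intervals overlapped. Multi-copy sequence moved with this contrast, since 30 of those 77 Control-only sites were multi-copy against 5 of those 46 EZHIP-only sites, and its part in the difference was not tested.

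In all, 240 of 22225 protein-coding genes had their start inside a peak of either list. Control peaks held 201 of the starts (0.904% of all genes) and EZHIP peaks 198 (0.891%). Of the 240, 159 (66.2%) were in peaks of both lists, 42 (17.5%) in Control peaks only and 39 (16.2%) in EZHIP peaks only. A start could leave a list because its whole peak had no counterpart or because the edge of a matched peak no longer reached it. The former applied to 21 Control-only and 20 EZHIP-only starts, the latter to 21 and 19. Developmental regulators made up 97 of the 240 starts, with 70 (72.2%) in both lists, 19 (19.6%) in Control only and 8 (8.25%) in EZHIP only. The other 143 starts were split into 89 (62.2%), 23 (16.1%) and 31 (21.7%). The developmental share in EZHIP peaks only had an interval of 3.63 to 15.6%, and that of other genes 15.2 to 29.3%. Both intervals treat starts as independent, although several starts share a peak, such as Hoxd9, Hoxd8 and Hoxd3. They may therefore be too narrow to compare these groups.

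**Figure D3:**
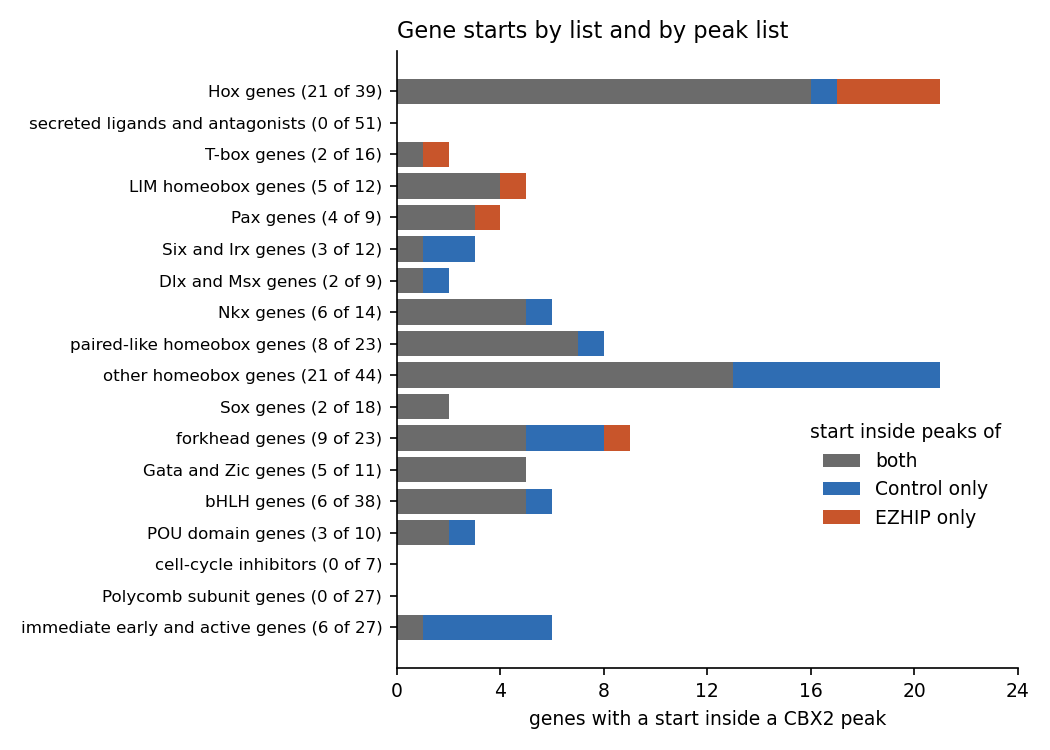
Number of genes of each list with a start inside a CBX2 peak, split into starts in peaks of both lists (grey), of Control only (blue) and of EZHIP only (orange). Figures in parentheses give the number with a start in a peak among the annotated genes of the list. The list of other homeobox genes holds 8 of the 19 Control-only developmental starts, and the Hox list 4 of the 8 EZHIP-only ones.

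Hox genes set position along the body axis. Of 39 Hox genes 21 had a start in a peak, 16 of them in both lists. Over all starts in peaks 66.2% were in both lists, and over the developmental ones 72.2%. The Hox starts lay in only 5 sites, and their split was near those shares. The Hoxc site was 91.6 kb wide in Control and 86.4 kb in EZHIP, and the Hoxc8 start lay 4.65 kb beyond the nearest EZHIP edge. The Hoxd site went from 46.2 to 64.6 kb, which took in the starts of Hoxd9, Hoxd8 and Hoxd3. The start of Hoxd3 lay 17.0 kb outside the Control peak. The Hoxa site went from 42.4 to 52.2 kb and took in Hoxa7. No Hox site passed the 1.5-fold limit.

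Homeobox genes outside the lists of the other named families held 8 of the 19 developmental starts that were in Control peaks only. This list and the Hox list also had the most starts in peaks. Of 44 such genes 21 had a start in a peak, 13 in both lists, 8 in Control only and none in EZHIP only, beside 17.5% Control only over all starts in peaks and 19.6% over the developmental ones. Whole peaks without a counterpart held En1 (19.6 kb), which patterns the midbrain and hindbrain boundary, Barx2 (4.8 kb), and Prox1 (3.2 kb), a regulator of lymphatic and liver cells. En1 was the second-widest Control-only peak with a protein-coding start, at chr1:122493401-122513000. The starts of Vax2, Hmx3, Bsx, Barx1 and Tlx1 dropped out at an edge, and lay 3.74, 0.62, 1.99, 3.17 and 3.28 kb outside the nearest EZHIP peak. Another start of Tlx1, from a different annotated transcript, lay in peaks of both lists.

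Narrower sites were counted in the same families. The other homeobox list had 5 narrower sites among 17 matched sites and the paired-like list 4 among 8, beside 33 of 189 (17.5%) over all matched sites. Starts inside narrower sites were 21 of all 199 starts in matched sites (10.6%), and starts inside wider sites were 11 (5.53%). Bsx went from 10 to 3.6 kb, Barx1 from 9.2 to 3.4 kb, Pdx1, which specifies the pancreas, from 12.4 to 6.8 kb, Vax2 from 27.4 to 16.2 kb and En2 from 16.4 to 10.4 kb. Among the paired-like genes, Otx2, a regulator of the forebrain and eye, went from 19.2 to 10.4 kb and Alx1 from 7.8 to 5.2 kb. Kept genes of the same families at nearly equal width were Uncx (22 and 20.6 kb), Otp (19.8 and 19.4 kb) and Lbx1 (18.2 and 19.2 kb).

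The list with Six3 and Irx5 had 3 of 12 starts in peaks. Irx5 had a 12 kb peak in Control and none in EZHIP. Six3, a regulator of forebrain and eye development, had 21.4 kb in Control and 5.8 kb in EZHIP, a ratio of 0.271. The EZHIP peak lay upstream of the Six3 start and ended 1.15 kb before it. Six6 remained in both lists at 16.8 and 11.4 kb.

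Nkx genes had 6 of 14 starts in peaks, with 5 in both lists. Nkx2-1, which specifies lung, thyroid and ventral forebrain, went from 19.2 to 7.6 kb, and its start lay 4.50 kb from the EZHIP peak. The cardiac gene Nkx2-5 had 13.4 kb in Control and 16.6 kb in EZHIP, Nkx2-3 had 25.2 and 24.6 kb, Nkx3-2 had 14.2 and 14 kb, and Nkx6-1 had 14.2 and 11 kb. Nkx2-1 was thus the single narrower site among these 6.

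Forkhead genes had 9 of 23 starts in peaks, with 5 in both lists. Foxb2 lay in a 3.2 kb Control peak without a counterpart, and Foxa2 and Foxi3 dropped out at an edge and lay 0.705 and 0.125 kb outside the EZHIP peak. A second start of Foxa2 was inside peaks of both lists. Foxl2, a gene of ovary and eyelid development, entered at an edge in EZHIP, where the site went from 8.6 to 12.4 kb. Foxd3, Foxa1, Foxd1 and Foxb1 were kept, with ratios between 0.774 and 1.05.

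Among the POU genes, Pou4f1, a factor of sensory neurons, went from 15.8 to 9 kb and no longer held its start, 2.62 kb away, while Pou3f2 (22.2 and 17.6 kb) and Pou3f3 (10 and 7.8 kb) kept theirs. Of the bHLH genes Bhlhe22 had a 6 kb Control peak alone, and Tcf21, a regulator of mesenchyme in kidney and lung, went from 13 to 4.4 kb. Tal1, a regulator of blood cell formation, was the only developmental regulator in a wider site and went from 4.8 to 9.6 kb. Neurog2, Olig3 and Olig2 were kept with ratios between 0.914 and 1.09. Of the Dlx and Msx genes, Msx1 had an 8.2 kb Control peak alone, and Dlx6 was kept at 15.8 and 12.4 kb.

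LIM homeobox, Pax and T-box genes had no Control-only start among their 5, 4 and 2 starts in peaks. The Control-only share over all starts in peaks was 17.5%. Lmx1b, which patterns the dorsal limb, was the only developmental regulator in a whole EZHIP peak without a counterpart, 12.4 kb wide (chr2:33486201-33498600). Lhx4, Lhx8, Lhx1 and Isl1 were in both lists, with ratios between 0.941 and 1.21. Pax7 entered at an edge, its start lying 1.05 kb outside the Control peak, and Pax6 (32.6 and 25.4 kb), Pax2 and Pax5 were kept. Tbx2 also entered, from 0.948 kb outside the Control peak, and Tbx20 was kept at 14.8 and 15.2 kb. The start of each of the 5 Gata and Zic genes with a peak (Gata3, Zic1, Zic2, Zic4 and Zic5) was in both lists, as were those of Sox2 and Sox21. The matched RefSeq start of Gata3, however, lay in a peak of neither list. Over all starts in peaks 66.2% were in both lists. The site of Zic1 and Zic4 had 45.8 kb in Control and 60.2 kb in EZHIP.

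**Figure D4:**
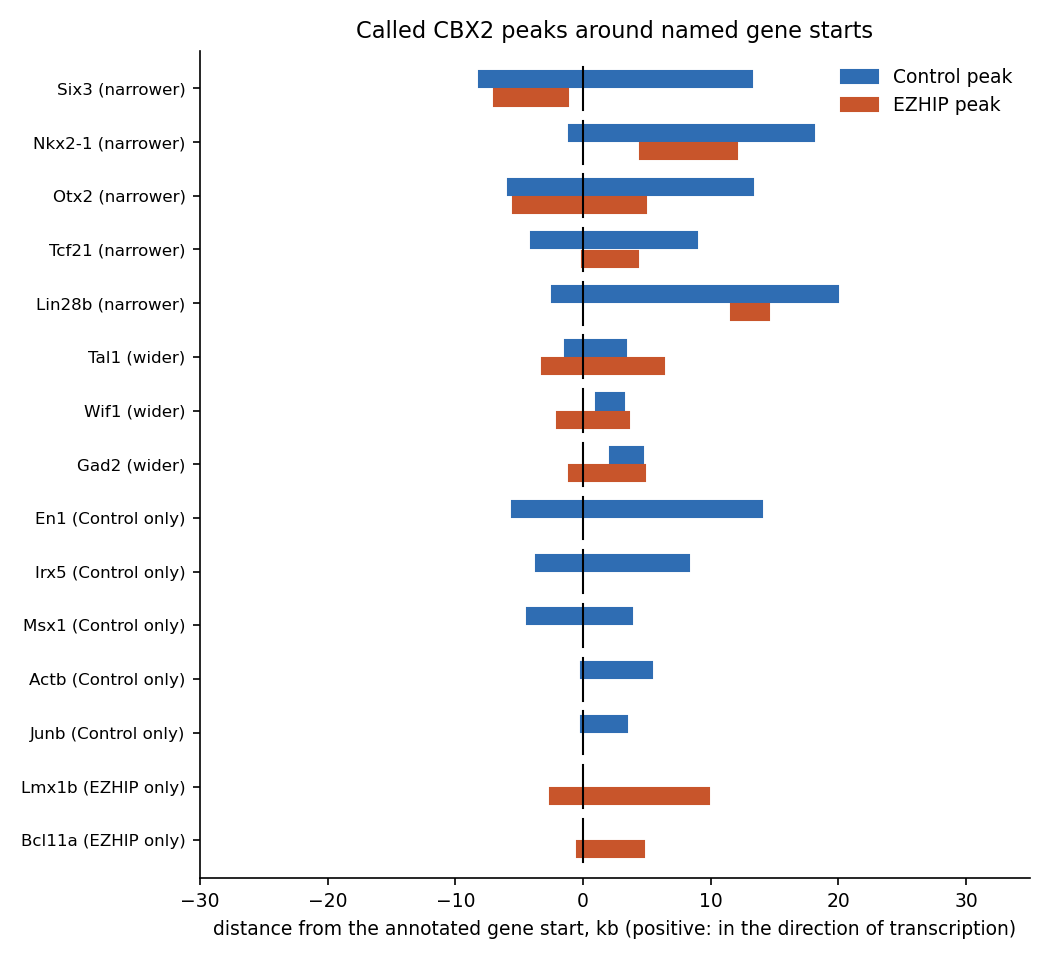
Called Control (blue) and EZHIP (orange) CBX2 peaks around the annotated starts of 15 named genes, in kb from the start and drawn in the direction of transcription. Among the narrower sites, the EZHIP peaks of Nkx2-1 and Lin28b lie downstream of the start and that of Six3 upstream, while those of Otx2 and Tcf21 still hold it. The Control peaks of Actb and Junb begin at the start and run downstream.

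Lists of secreted ligands and their antagonists (51 genes), cell-cycle inhibitors (7) and Polycomb subunits (27) had no start in a peak of either list. Over all protein-coding genes the share was 240 of 22225 (1.08%). At that share lists this small can hold no start, so no trait of these families is read from it. The list of immediate early and otherwise active genes had 6 of 27 starts in peaks. Of these 6, 5 were in Control only, beside 17.5% over all starts in peaks. This list was written with earlier results of these peaks known, so the contrast describes the lists and is no test. Whether its genes were active in these cells was not examined. Egr1, an early growth response gene, was in both lists at 5.2 and 5 kb, and the other 5 lay in Control peaks without any counterpart. These were the cytoskeletal actin gene Actb (5.6 kb), the AP-1 gene Junb (3.6 kb), the immediate early gene Ier2 (3 kb), the stress-induced gene Ddit3 (2.4 kb) and Ier3 (1.2 kb). The Ier3 peak was narrower than any EZHIP peak. None of the 5 was multi-copy, with at most 10.7% of sampled 32-mers repeated.

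In Control, peaks at the genes of this active list were placed differently against the start from peaks at developmental genes. In all 6 the start lay within 200 bp of the upstream edge of the Control peak (28 bp at Ier3, 29 at Ddit3, 49 at Ier2, 60 at Egr1, 167 at Actb and 183 at Junb), and the rest of the peak ran downstream. That arrangement was found at 0 of the 89 developmental starts in Control peaks, which allows a share of up to 4.06%, and at 10 of all 201 starts in Control peaks (4.98%, 2.41 to 8.96). Developmental starts in Control peaks lay at a median of 5.88 kb from the upstream edge and 9.56 kb from the downstream edge. In EZHIP peaks 2 of 78 developmental starts had the arrangement, Tcf21 (66 bp) and Pax7 (155 bp). Of the remaining 106 starts in Control peaks 4 had it, at Hist1h1e (29 bp), Hist1h1c (75 bp), Gm10801 (193 bp) and Cyr61. Cyr61, another gene of the early serum response that was in none of the lists, had a 4.4 kb Control peak without a counterpart and its start 51 bp inside the upstream edge. Cyr61, Hist1h1e, Hist1h1c and Gm10801 were noticed after their values were seen, as was the position of the starts within the peaks. Peaks of Junb, Actb, Ier2, Egr1 and Cyr61 reached 1.61, 1.79, 1.43, 1.36 and 1.33 kb past the annotated gene end, so the covered stretch included the whole transcribed unit. At Ddit3 and Ier3 the peak ended within the gene, after 2.37 of 5.52 kb and 1.17 of 1.24 kb. The EZHIP peak of Egr1 kept this form, with 60 bp upstream and 4.94 kb downstream of the start.

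Outside the gene lists, the widest Control-only peaks with a gene start were at BC107364 (24 kb, multi-copy), Wt1 (13.4 kb), Heatr7b1 (11.6 kb) and Fezf1 (9.2 kb). Wt1 is a zinc finger gene of kidney and gonad development and Fezf1 a zinc finger gene of the olfactory system. Osr2 (9.8 and 5.6 kb), a zinc finger gene of limb and palate, Dmrt2 (6.2 and 4 kb) and Peli2 (3.4 and 2.2 kb) were narrower. The smallest ratio of any matched site was at Lin28b, an RNA-binding inhibitor of let-7 maturation, where 22.4 kb in Control became 3 kb in EZHIP (ratio 0.134) and the start lay 11.6 kb outside the EZHIP peak.

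Several narrower sites held no annotated start but lay next to a developmental gene, and these were picked after their values were seen. A site 1.13 kb from the Gata4 start went from 34.4 to 16 kb. Sites 0.912 kb from Gsx2 and 3.29 kb from Foxf2 went from 8.2 to 2.4 kb and from 9 to 3.8 kb, and a site 0.331 kb from Dmbx1 went from 5 to 2.2 kb. A Control-only peak of 11.6 kb lay 4.09 kb from the start of Pax3.

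Of the 20 starts in EZHIP peaks without a counterpart, 19 were outside the developmental lists. Beside that stood 14 of the 21 starts in Control peaks without a counterpart and 143 of all 240 starts in peaks. Several of these starts share a peak, so the counts are not independent. After Lmx1b the widest were at Ranbp6 (8.4 kb), the synaptic gene Rims2 (8 kb), Hist1h4i, Hist1h2ag and Hist1h2bj (7.8 kb), Hist1h3h and Hist1h2bm (5.6 kb) and the multi-copy Rsph3b (5.6 kb). Bcl11a (5.2 kb), a repressor of fetal globin genes, Tcfap2c (4.8 kb), a factor of trophoblast and germ cells, Sfmbt2 (4.4 kb), an imprinted Polycomb-group gene, and Cpeb2 (4.4 kb) followed. The widest EZHIP-only peak of all, 18.2 kb at chr2:94019201-94037400, held no protein-coding start and lay 21.1 kb from that of Hsd17b12.

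Control peaks of wider sites, small in part by the choice of class, often stopped short of a gene start. Wif1, a Wnt inhibitor, went from 2.2 to 5.6 kb (ratio 2.55), Gad2, an enzyme of GABA synthesis, from 2.6 to 6 kb, Chn1 from 2.6 to 6.2 kb and Zfp36l2 from 2.6 to 5 kb. The starts of these 4 genes were in the EZHIP peak only, and lay 0.985, 2.08, 0.198 and 0.087 kb outside the Control peak. A second start of Zfp36l2 was in both. Tcfap2b (3.2 to 6 kb) and B4galnt2 (4.4 to 10.4 kb) had their starts in both lists. The largest ratio, 3.00, was at a site with 55.9% repeated 32-mers that lay 1.63 kb from H2-T3.

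Width changes were also counted by what a site held. Among matched sites with a developmental start, 13 of 69 (18.8%, 10.4 to 30.1) were narrower and 1 of 69 (1.45%, 0.0367 to 7.81) was wider. Among those with another protein-coding start, 6 of 56 (10.7%, 4.03 to 21.9) were narrower and 8 of 56 (14.3%, 6.38 to 26.2) wider, and among those with none, 14 of 64 were narrower and 5 wider. The background over all matched sites was 17.5% narrower and 7.41% wider, and the intervals of the groups overlapped in both directions. The median log2 ratio was -0.11 (-0.30 to -0.04) with a developmental start, -0.07 (-0.14 to 0) with another start and -0.09 (-0.44 to 0) with none, so these intervals overlapped.

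Replication-dependent histone genes were chosen after their values were seen. Of 55 genes named Hist1, 36 had a start in a peak, 23 in both lists, 5 in Control only and 8 in EZHIP only, over 10 sites. That split was close to the one over all starts in peaks (66.2%, 17.5% and 16.2%). The fraction of repeated 32-mers in these sites ran from 7.89 to 100%. It was 97.2% at the site of Hist1h2ao and 100% at the site of Hist1h2ap, which were multi-copy, so placement of reads is ambiguous there. At the other Hist1 sites it was at most 18.75%, and none of those was multi-copy. Of the 9 genes named Hist2, 6 had a start in a peak and each of those was in both lists.

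Within matched sites, stretches covered in Control but not in EZHIP had fewer CpG dinucleotides than stretches covered in both. Over all matched sites, the kept stretches held 25.3 CpG per kb, those of Control alone 19.9 and those of EZHIP alone 23.8. Without multi-copy sites the values were 28.7, 23.4 and 24.9. Site by site, the Control-only stretch had a lower CpG density than the kept stretch at 92 of 137 sites (67.2%, 58.6 to 74.9), and the EZHIP-only stretch at 55 of 98 (56.1%, 45.7 to 66.1). Both kinds of stretch lie at the rim of a peak by construction, so these were also set against each other, and their intervals overlapped. Within the 33 narrower sites the Control-only stretch was the poorer in CpG at 21 (63.6%, 45.1 to 79.6).

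**Figure D5:**
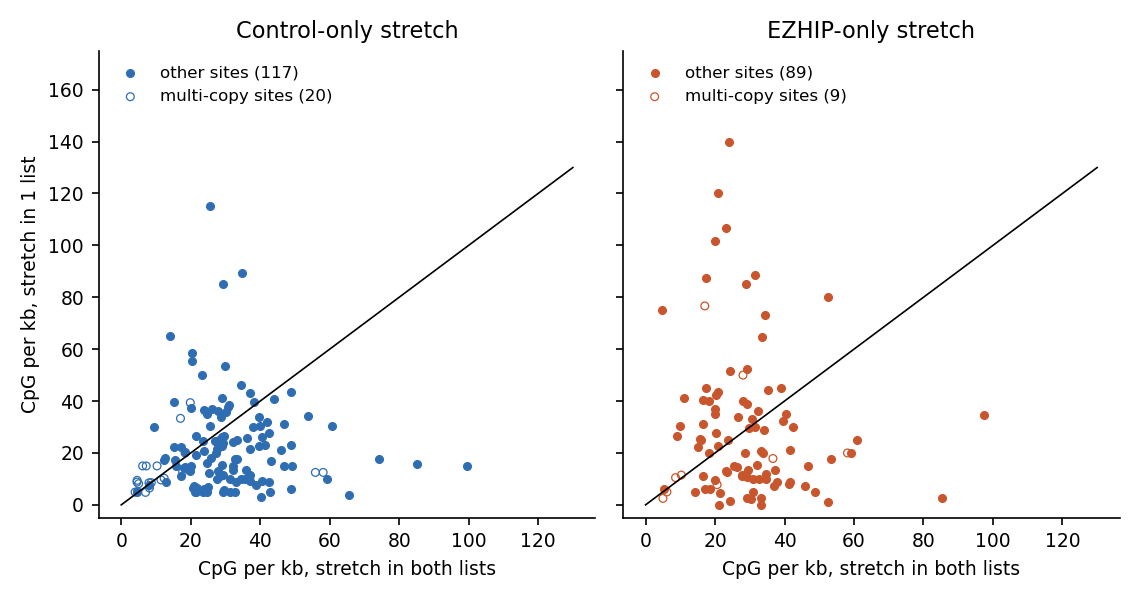
CpG dinucleotides per kb of the stretch covered in a single list (vertical axis) against the stretch covered in both lists (horizontal axis) of the same site, with 1 point per site. Stretches of Control alone are on the left and of EZHIP alone on the right, and open points are multi-copy sites. On the left 92 of 137 points lie below the line of equal density, on the right 55 of 98.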

How the data were processed

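CBX2 ChIP-Seq libraries of Control and EZHIP MEFs, 1 per group, were compared. The deposited lists have 3 columns (chromosome, start, end) per peak, with no score, and no other list was used. Per the study's methods the authors aligned reads to mm9 and a spike-in genome with bowtie1 and called broad peaks with MOSAiCS-HMM. The submitters' processing notes give Bowtie 1.0.0 and deepTools. Use of an input, scaling before calling, and depth are not stated. Peak number and width can move with depth, and default alignment places repeated reads at 1 position.

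Peaks were read as whole 200 bp bins, 1-based, on NCBIM37. A gene start was the outermost 5′ end of a GENCODE vM1 protein-coding gene, with 1 model kept per symbol. This annotation can lie away from a RefSeq start, and 118 of the 240 genes in peaks had a RefSeq start matched exactly to NCBIM37. Multi-copy meant that at least 50% of 32-mers, taken at steps of 100 bp, were found at several places in the genome. A CpG island window was 500 bp (step 50 bp) with G+C of at least 55% and observed over expected CpG of at least 0.65. Intervals are Clopper-Pearson for percentages and binomial order statistics for medians (numpy 2.4.6, scipy 1.17.1, Python 3.11.15). No test was run, and no p-value was computed, because 1 library per group gives no replicate error. Steps were tested on simulated data.

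The members, the 18 gene lists (394 genes, 390 annotated) and the naming rule were chosen with earlier results of these data known. Named genes were list genes whose start was in a single list or in a changed site, the 10 widest single-list peaks per list with a start, the 10 largest and 10 smallest ratios, and up to 4 kept genes per list. Others are said to be chosen after their values were seen.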

Additional observations from a re-analysis of the deposited data

How the results depend on the processing

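The 13 summary values were recomputed under 11 other settings and 2 more chosen after seeing the data (RefSeq starts where matched, and only peaks at least as wide as the narrowest EZHIP peak), and 99 of 114 values stayed within their 95% interval, or within 1.5 times for a count. Only the median log2 width ratio has a sign that could reverse, and it was negative at each setting where it was recomputed. Each count of gene starts stayed within 1.5 times. Some values could not move under a setting. One was the matched share of EZHIP peaks (75.7%) with only peaks at least as wide as the narrowest EZHIP peak. Asking for an overlap of 50% of both peaks gave matched shares of 57.8% of Control and 65.5% of EZHIP peaks and 11.4% narrower sites. With only peaks of at least 5000 bp, 73.9% of Control peaks were matched, 1.53% of sites were wider, and a gene start lay in 36.2% of Control-only and 51.5% of EZHIP-only peaks. With only CpG island peaks the matched share of Control peaks was 76.2%, and a start lay in 44.4% of Control-only and 55.6% of EZHIP-only peaks. Starts within 1000 bp of a peak raised the EZHIP-only share to 43.5%. A looser limit, a width ratio of 5 to 4, gave 34.4% narrower and 17.99% wider sites, and 2-fold gave 7.41% and 3.17%. A looser or stricter fold limit raises or lowers the narrower and wider shares by construction. Likewise, a stricter overlap can only lower the matched shares, and the 1000 bp distance can only raise the share with a start. It was not tested why the other values shifted, such as those with wider or CpG island peaks alone. No paired analysis was possible because the groups held a single library each. Unknown depth and missing scores limit every call of a peak as present in a single list.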
